A study of Mus musculus with 20 samples.

Results

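The major histocompatibility complex (MHC) genes and the genes that supply their proteins with peptide were followed in RNA of whole mouse skin. They were taken by name. Every symbol of the expression table that begins with H2-, leaving out names marked -ps as pseudogenes, entered together with B2m, Tap1, Tap2, Tapbp, Psmb8, Psmb9, Psmb10, Nlrc5, Ciita, Cd74 and Ctss. This gave 52 genes of the 46744 rows of the table. Of these, 36 belong to class I (29 heavy chain symbols, the light chain B2m and 6 processing genes) and 13 to class II. Nlrc5 and Ciita are transcriptional activators, and H2-Ke6 encodes a steroid dehydrogenase that carries the prefix only for its position. The rule uses names and no measured value.

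The skin came from C57BL/6 mice, in 20 samples of 6 groups. Control skin with the genotype Sod2+/+ was taken at 700 days (n = 4) and at 50 days (n = 5), with titles that share one prefix. Skin of a conditional knockout (cKO) with the genotype Sod2-/- was taken at 300 days (n = 3) and at 100 days (n = 3), and its controls with the genotype Sod2+/+ at 300 days (n = 3) and 100 days (n = 2), under another prefix. The labels name neither the driver of the deletion nor the cells in which Sod2, which encodes mitochondrial superoxide dismutase, was removed. The series title places persistent JunB activity in fibroblasts and its effect on skin ageing at the centre of the study.

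MHC class I molecules are a heavy chain paired with beta-2-microglobulin. On nearly all nucleated cells they show CD8 T cells peptides that the proteasome cuts in the cytosol and that the TAP transporter carries into the endoplasmic reticulum. MHC class II molecules are made chiefly by dendritic cells, Langerhans cells, macrophages and B cells. They show CD4 T cells peptides from endosomes, after the invariant chain has been removed and the H2-DM protein has helped the exchange. Interferon gamma raises both classes, through Nlrc5 for class I and Ciita for class II. C57BL/6 mice carry the b haplotype, which makes no H2-E alpha chain, so H2-Eb1 transcript is found in this strain without the H2-E protein on the surface.

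Of the 52 genes, 46 lie on chromosome 17 in the GENCODE M21 annotation of GRCm38 (mm10). The classical heavy chain H2-K1 lies at chr17:33996017-34000347, and H2-Ab1, H2-Aa and H2-Eb1 follow at chr17:34257689-34269419, chr17:34282744-34287823 and chr17:34305867-34316674. H2-D1 lies at chr17:35262730-35267499. B2m lies elsewhere, at chr2:122147686-122153083, and the class II activator Ciita at chr16:10480059-10528418. Promoter sequence of RefSeq (GRCm38.p6, 250 bases before to 50 after the annotated start) was found for 38 of the 52 genes. The stretches from 150 bases before to 20 after the start are shown for 3 class II genes that are described below with very different levels, and for a heavy chain and the light chain of class I, each on its own strand.

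In the class II promoters the capitals mark the Y box letters CTGATTGG, or, in H2-Ob, the core CCAAT read on the other strand. This element is bound by the factor NF-Y. In H2-K1 the capitals mark the NF-kappaB core GGGGATTCC and CTGATTGG read on the other strand, and in B2m the interferon response core GAAANNGAA.
H2-Aa, chr17:34287804-34287973, minus strand: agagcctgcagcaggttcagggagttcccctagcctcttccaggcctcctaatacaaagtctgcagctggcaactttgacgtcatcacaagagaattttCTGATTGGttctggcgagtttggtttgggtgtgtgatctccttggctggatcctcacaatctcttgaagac
H2-Eb1, chr17:34305717-34305886, plus strand: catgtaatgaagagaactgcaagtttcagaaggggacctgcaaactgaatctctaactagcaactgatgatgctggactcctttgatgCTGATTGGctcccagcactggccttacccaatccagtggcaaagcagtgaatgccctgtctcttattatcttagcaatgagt
H2-Ob, chr17:34238755-34238924, plus strand: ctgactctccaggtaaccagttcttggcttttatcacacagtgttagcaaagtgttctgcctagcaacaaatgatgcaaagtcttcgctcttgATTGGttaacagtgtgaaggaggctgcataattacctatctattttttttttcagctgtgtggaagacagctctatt
H2-K1, chr17:34000328-34000497, minus strand: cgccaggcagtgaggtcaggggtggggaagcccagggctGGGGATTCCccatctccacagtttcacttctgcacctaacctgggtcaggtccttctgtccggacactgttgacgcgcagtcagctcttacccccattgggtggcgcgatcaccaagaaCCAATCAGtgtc
B2m, chr2:122147537-122147706, plus strand: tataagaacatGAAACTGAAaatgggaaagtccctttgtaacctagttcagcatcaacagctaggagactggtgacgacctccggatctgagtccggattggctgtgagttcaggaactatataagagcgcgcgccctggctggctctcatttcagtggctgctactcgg

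The first letter of CTGATTGG lay 51 bases before the start of H2-Aa and 62 before that of H2-Eb1. In H2-K1 the match on the other strand began 8 bases after the start shown. It began 6 bases before another annotated start of that gene. The counts here cover genes with a promoter sequence at any level of expression, so they are not the sets of 9 and 22 genes used below. Class II here lacks H2-Ab1 and Cd74 and includes H2-Oa and H2-Eb2, which averaged below 1 FPKM. On either strand CTGATTGG occurred in the promoters of 4 of 9 class II genes and 13 of 22 class I heavy chain genes, against 4.703% of all 27025 genes with a promoter. Some of these heavy chain genes, such as H2-M1 and H2-M10.1, also averaged below 1 FPKM. CCAAT, which lies within the reverse complement of CTGATTGG, occurred in 8 of 9 class II and 19 of 22 heavy chain promoters, against 41.06% of all genes. GGGGATTCC occurred in 4 of 22 heavy chain promoters and 0 of 9 class II promoters, against 0.296% of all genes. GAAANNGAA occurred in 2 of 22 heavy chain and 1 of 9 class II promoters, against 9.761% of all genes. Many of these genes arose by duplication, so the matches are not independent of each other. Psmb9 and Tap1, which share 1 match between their divergent starts, are processing genes outside these counts.

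Expression was deposited by the authors as FPKM, a fragment count scaled to gene length and library size, with a single value for each gene in each group. With no value per sample used here, no error, interval or test stands beside any value below, and read depth is unknown. A difference is given as the log2 ratio of (FPKM + 1), which understates the change of low genes. A gene is counted as higher or lower where that ratio has a size of at least 1, over the 12296 named genes whose average across the 6 groups was 1 FPKM or more. Ratios were taken only between groups with the same title prefix. Of the 52 genes 34 reached that mean: 22 of class I, 9 of class II, both activators and H2-Ke6. The filter keeps a gene that is high in 1 group and low in the rest, so counts over these 34 describe only them. Among them H2-Ob passed only through the 300-day controls, with 11.0 FPKM there and at most 0.702 FPKM in every other group. Its ratios to that group, and its place in counts that use that group, are not independent of the filter. In whole tissue, fewer cells that carry a transcript and less transcript per cell cannot be told apart.

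The lowest column total was 496936 FPKM, in the 700-day controls, and the highest 692242 FPKM, in cKO skin at 300 days. Malat1 was listed at 0 under the prefix of the 700-day and 50-day controls and at 6080 FPKM or more under the other, so levels under different prefixes are given side by side and not compared. Sod2 was 16.8 FPKM in cKO and 23.5 FPKM in control skin at 300 days, and 17.6 against 27.7 FPKM at 100 days. Summed markers of keratinocytes and fibroblasts were at least 1576 and 800 FPKM in every group, as for skin. The groups also differed in other ways. The 4 Y-linked transcripts examined were 14.7 to 45.1 FPKM in both cKO groups and at 700 days, and 0.347 FPKM or less in the remaining controls, so sex cannot be told apart from genotype at either age, or from age between 700 and 50 days. The marker lists used here and below were chosen with earlier results of these data known. A list of 13 B cell markers summed to 451 FPKM in the 300-day controls and to between 6.37 and 16.6 FPKM elsewhere. Glycam1, a mucin of lymph node venules, was 73.6 FPKM in the 300-day controls and at most 0.515 FPKM elsewhere, while Ccl21a was listed at 0 in all 6 groups. Cxcl13, of the same lymph node list, was 17.7 FPKM in cKO skin at 100 days, 11.1 FPKM in the 300-day controls and at most 2.91 FPKM elsewhere. Markers of secretory glands and mammary epithelium summed to 433 FPKM in the 100-day controls, 132 FPKM in the 300-day controls and at most 46.7 FPKM in the others.

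Of the class I genes, B2m, H2-K1 and H2-D1 were among the most abundant transcripts of the skin. B2m, the light chain shared by class I molecules, was 970.1 FPKM at 700 days and 968 FPKM at 50 days in control skin. It was 307 FPKM in cKO and 516 FPKM in control skin at 300 days, and 264 against 506 FPKM at 100 days. It ranked 25th in the 700-day controls and 29th in the 50-day controls among the 12296 genes. In the 300-day and 100-day controls it ranked 58th and 57th, and in cKO skin of those ages 113th and 126th. H2-K1, a classical heavy chain, was 419.7 FPKM at 700 days and 328 FPKM at 50 days in control skin. It was 158 FPKM in cKO against 237 FPKM in control skin at 300 days, and 136 against 179 FPKM at 100 days. H2-D1, the other classical heavy chain, was 328 against 252 FPKM (700 and 50 days), 174 against 216 FPKM (cKO and control, 300 days) and 134 against 202 FPKM (cKO and control, 100 days). At both ages cKO skin had the lower value for B2m, H2-K1 and H2-D1.

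Among class II genes Cd74 stood highest. Cd74 encodes the invariant chain, and its row also carries the microRNA Mir5107, which lies inside the gene. It was 163 FPKM at 700 days and 283 FPKM at 50 days in control skin, 107 FPKM in cKO against 363 FPKM in control skin at 300 days, and 87.3 against 147 FPKM at 100 days. H2-Ab1 and H2-Aa, the beta and alpha chains of the H2-A molecule, came next, with 155 and 132 FPKM in the 300-day controls. The order Cd74, H2-Ab1, H2-Aa, H2-Eb1 held in each of the 6 groups. At the low end, 18 genes had a mean below 1 FPKM, with values from 0 to 4.08 FPKM. They include the H2-M10 symbols, which are known from the vomeronasal organ, and the pseudogene H2-Pa, listed at 0 throughout. Only 4 of the 18 reached 1 FPKM in some group. These were H2-T3 at 3.97 FPKM in cKO skin at 100 days, H2-M9 at 1.03 FPKM in the 100-day controls, and the class II genes H2-Oa and H2-Eb2 at 4.08 and 1.97 FPKM in the 300-day controls.

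**Figure D1:**
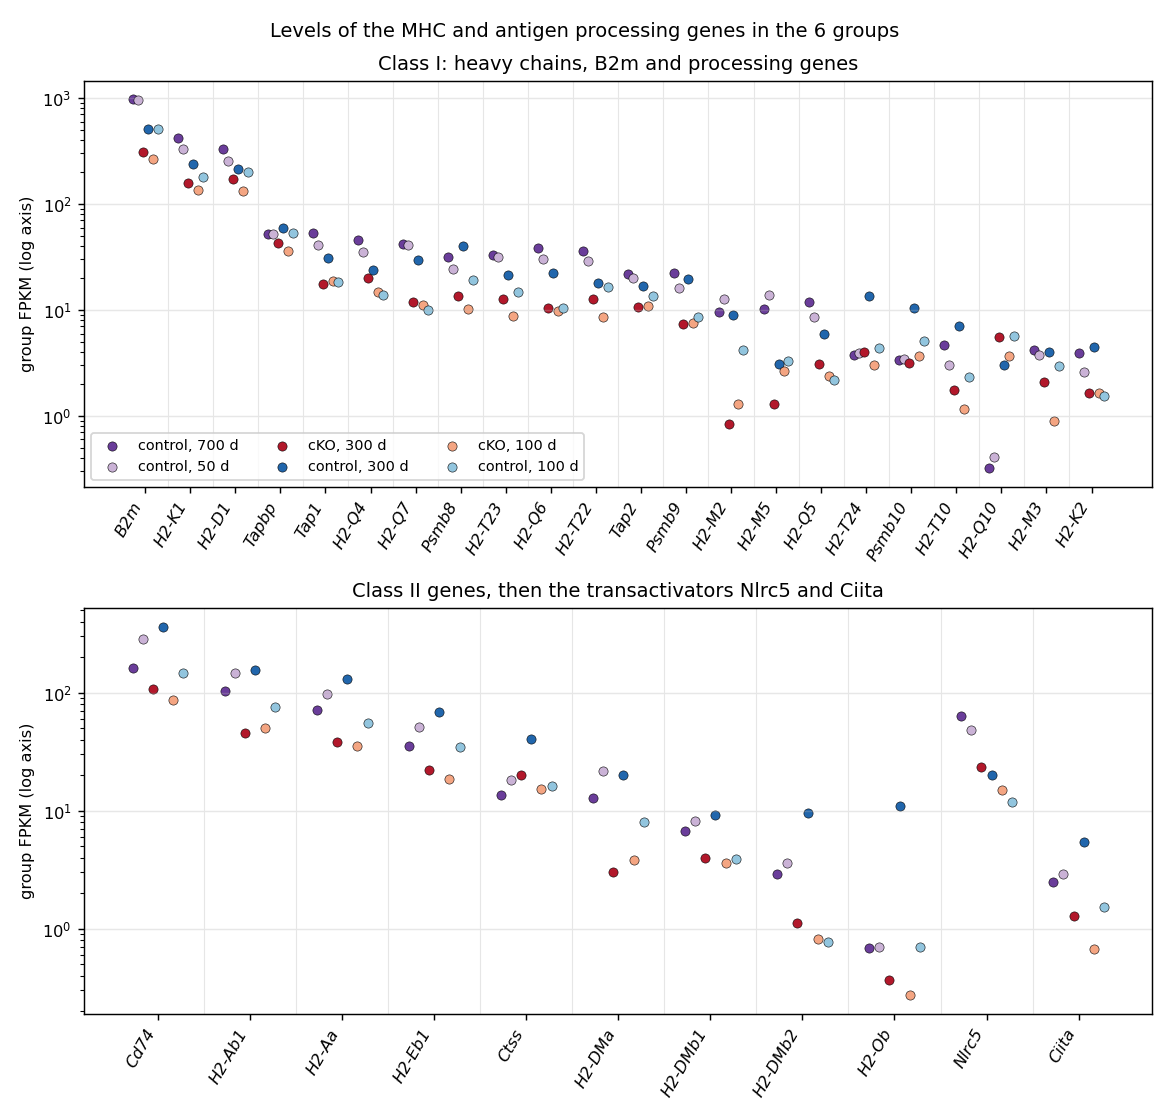
Group FPKM on a log axis of the 22 class I genes (upper panel) and of the 9 class II genes and both activators (lower panel) with an average of 1 FPKM or more, 1 point per group, with genes ordered by their mean. Among the groups at 300 and 100 days, the 300-day controls hold the highest point for all 9 class II genes and Ciita. B2m is at 307 FPKM in cKO and 516 FPKM in control skin at 300 days.

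At 300 days the class II transcripts of cKO skin lay below those of control skin throughout, and class I transcripts differed by less. Of the 9 class II genes 8 were lower by the size counted and none higher, with a median log2 ratio of -1.75. Of the 22 class I genes 9 were lower and none higher, with a median of -0.77. Across all 12296 genes 5.21% were lower and 1.92% higher, and the median was -0.01. Without the filter on low values, 10 of 13 class II and 9 of 36 class I symbols were lower. Set against control skin at 100 days instead, a choice made after the lymphocyte transcripts of the 300-day controls had been seen, 1 of 9 class II genes (median -0.45) and 1 of 22 class I genes were lower. H2-DMb1, H2-DMb2 and Ctss then lay above 0, at 0.019, 0.25 and 0.27, and the median of all genes was 0.04. The share of all genes lower was not computed for this comparison or without the filter.

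The chains of the class II molecules were lower to similar degrees. H2-Aa was 38.5 FPKM in cKO and 132 FPKM in control skin (log2 ratio -1.75), and H2-Ab1 45.2 against 155 FPKM (-1.75). H2-Eb1, the beta chain of H2-E, was 22.1 against 68.1 FPKM (-1.58). The invariant chain Cd74 gave -1.75. The proportions between these transcripts therefore stayed close within the pair of groups: H2-Aa over H2-Ab1 was 0.851 in cKO and 0.851 in control skin, and Cd74 over H2-Ab1 was 2.37 against 2.35.

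The genes that load peptide on class II differed more among themselves. H2-DMa, the alpha chain of the exchange catalyst H2-DM, was 3.04 FPKM in cKO against 20.1 FPKM in control skin (log2 ratio -2.39). Its span overlaps that of Brd2 in the annotation. H2-DMb1 and H2-DMb2, alternative beta chains, were 3.97 against 9.22 FPKM (-1.04) and 1.12 against 9.51 FPKM (-2.31). About 15.84% of the 75-base windows of H2-DMb1 transcripts also occur in H2-DMb2, so their split is uncertain. H2-Ob encodes the beta chain of H2-O, an inhibitor of H2-DM known chiefly from B cells and thymus. It was 0.371 against 11.0 FPKM (-3.13), the lowest ratio among the 34 genes, but it passed the filter only through the 300-day controls. H2-Oa, its partner, was 0.0582 against 4.08 FPKM, and H2-Eb2, an H2-E beta-like gene, 0.200 against 1.97 FPKM; both lie below the filter. Ctss, the protease cathepsin S that cuts the invariant chain, was 19.9 against 40.3 FPKM (-0.98), just short of the size counted.

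Class II transcripts, H2-Ob and lymphocyte markers stood high in the same group. At 300 days cKO skin was lower in all 13 B cell markers (sums 16.6 FPKM in cKO and 451 FPKM in control skin), and in 13 of 14 T and NK cell markers (41.4 and 226 FPKM). So were 7 of 13 macrophage and monocyte markers (182 and 435 FPKM) and 4 of 13 dendritic and Langerhans cell markers (75.7 and 125 FPKM). The defining B cell gene Ms4a1 was listed at 0 in cKO and at 6.81 FPKM in control skin. The 4 lower dendritic and Langerhans markers were Ccr7 (0.368 against 7.20 FPKM), Mgl2 (8.67 against 29.5 FPKM), Itgax and Flt3. Cd207, which marks Langerhans cells, was 4.60 against 5.75 FPKM (-0.27). Epcam, the largest value in that list, was 29.9 against 32.1 FPKM (-0.10). Relative to the leukocyte gene Ptprc, the summed H2-Aa, H2-Ab1, H2-Eb1 and Cd74 was 16.4 in cKO and 8.04 in control skin. Relative to the summed macrophage list it was 1.17 against 1.65. The part of these cells in the class II difference was not tested.

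**Figure D2:**
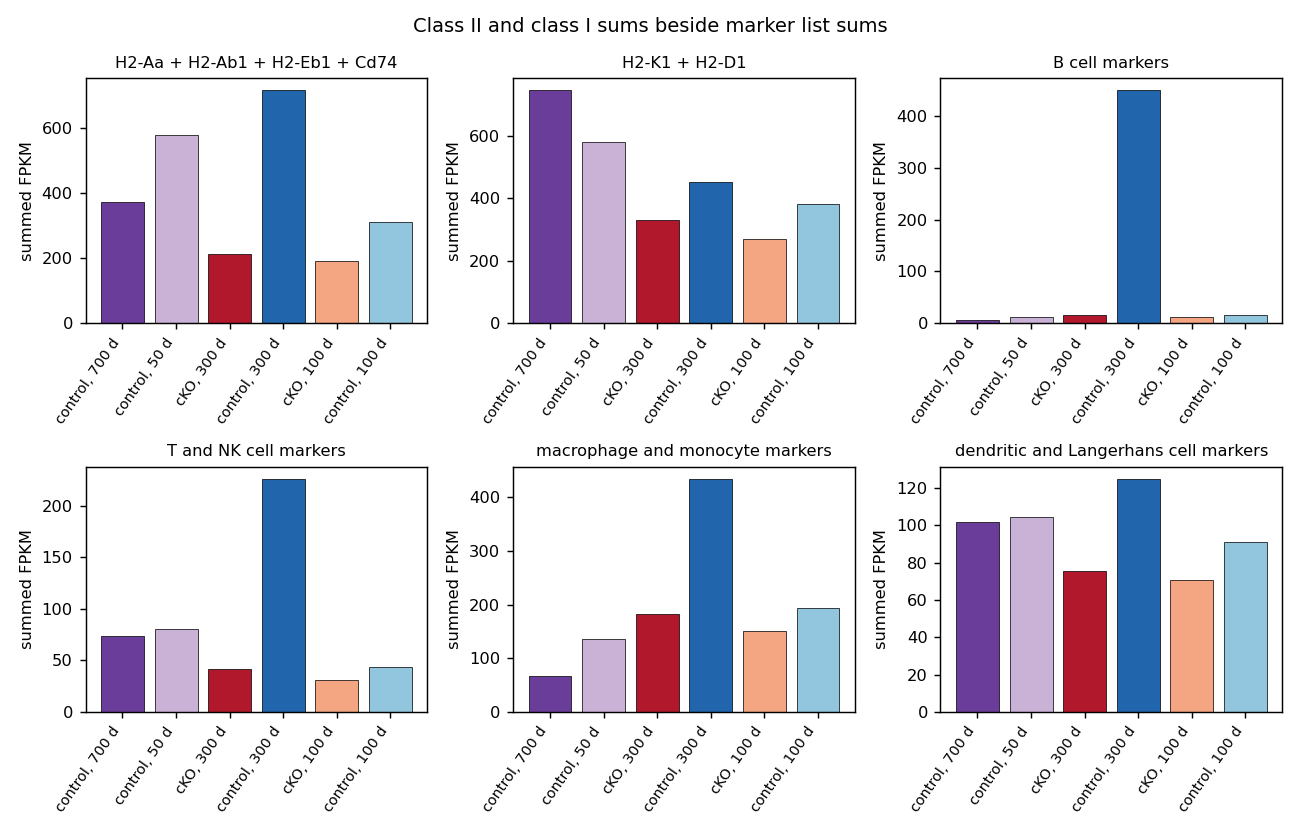
Summed FPKM in the 6 groups (bars from 0) of 4 class II genes, of H2-K1 and H2-D1, and of 4 marker lists. At 300 days the class II sum was 213 FPKM in cKO and 717 FPKM in control skin and the B cell list 16.6 against 451 FPKM, while H2-K1 and H2-D1 summed to 332 against 453 FPKM.

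Class I genes at 300 days showed both larger and smaller differences. The classical chains were on the small side, with log2 ratios of -0.58 for H2-K1, -0.31 for H2-D1 and -0.75 for B2m. Of 15 heavy chain genes past the filter 6 were lower by the size counted, against 5.21% of all genes. H2-M2, a nonclassical heavy chain, was 0.847 FPKM in cKO and 9.01 FPKM in control skin (-2.44). H2-T10 was 1.77 against 7.03 FPKM (-1.54) and H2-T24 4.03 against 13.5 FPKM (-1.53). H2-Q7 and H2-Q6, which encode Qa-2 chains, were 11.9 against 29.6 FPKM (-1.24) and 10.5 against 22.4 FPKM (-1.03). H2-K2, annotated as a transcribed pseudogene, was 1.65 against 4.50 FPKM (-1.05). H2-Q10, known as a heavy chain secreted by liver, was alone in the other direction at 5.56 against 3.02 FPKM (0.71).

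H2-T23, which encodes Qa-1, was 12.8 against 21.5 FPKM (-0.70) and its neighbour H2-T22 12.8 against 18.1 FPKM (-0.47). H2-M3, which binds formylated peptides, was 2.10 against 4.04 FPKM (-0.70), and H2-M5 was 1.31 against 3.12 FPKM (-0.84). H2-Q4 was 20.03 against 23.97 FPKM (-0.25) and H2-Q5, annotated as a polymorphic pseudogene, 3.07 against 5.93 FPKM (-0.77). Copies of this family share sequence. Of the 75-base windows in their transcripts, 21.23% in H2-Q5, 17.85% in H2-Q6, 16.95% in H2-Q7, 18.46% in H2-T22 and 16.05% in H2-T10 also occur in another gene, against 3.104% in H2-K1 and 5.403% in H2-D1. The division of reads within the Q and T groups is therefore uncertain.

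Of the 6 class I processing genes 3 were lower by the size counted at 300 days, against 5.21% of all genes. All 3 are subunits of the immunoproteasome, the form of the proteasome that interferon induces. Psmb8 was 13.5 FPKM in cKO and 39.9 FPKM in control skin (-1.50), Psmb9 7.38 against 19.7 FPKM (-1.30) and Psmb10 3.14 against 10.4 FPKM (-1.46). Their constitutive counterparts differed less: Psmb5 was 28.4 against 51.7 FPKM (-0.84), in a row shared with Mir686, Psmb6 64.0 against 72.8 FPKM (-0.18) and Psmb7 47.0 against 48.4 FPKM (-0.04). Within a group, Psmb9 over Psmb6 was 0.115 in cKO and 0.270 in control skin. The TAP transporter genes Tap1 and Tap2 were 17.5 against 30.7 FPKM (-0.78) and 10.7 against 16.9 FPKM (-0.62). Tapbp, which encodes tapasin and shares its row with Zbtb22, was 43.0 against 59.5 FPKM (-0.46). The span of Psmb9 overlaps that of Tap1. None of 7 genes of the peptide loading complex and endoplasmic reticulum outside the MHC, such as Calr and Pdia3, passed the size counted (median -0.14), nor did any of 4 proteasome activator genes (-0.33) or 8 genes of endosomal protein breakdown, the protease inhibitor Cst3 among them (-0.30).

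**Figure D3:**
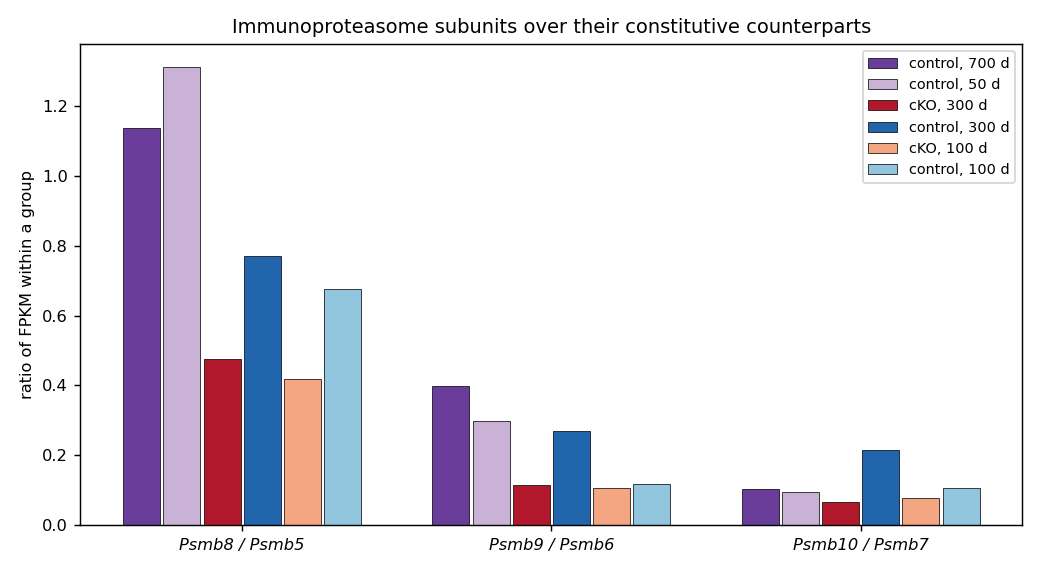
Ratio of FPKM, within each group, of the immunoproteasome subunits Psmb8, Psmb9 and Psmb10 over the constitutive subunits that fill the same place (Psmb5, Psmb6 and Psmb7), as bars from 0. At both ages all 3 ratios of cKO skin lay below those of control skin. At 100 days Psmb9 over Psmb6 was close, at 0.106 in cKO and 0.118 in control skin. It was 0.399 at 700 days and 0.298 at 50 days in control skin.

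The activators of the classes differed at 300 days. Ciita was 1.29 FPKM in cKO and 5.46 FPKM in control skin (-1.50), and its span overlaps that of Dexi. Nlrc5 was 23.6 against 20.2 FPKM (0.22), short of the size counted. Irf1, a transcription factor that interferon gamma induces and the single gene of 12 MHC transcription factors to pass the size counted, was 5.56 against 18.5 FPKM (-1.57). Rfx5, a subunit of the factor on the class II X box, was 8.26 against 8.71 FPKM (-0.07). Ifng was listed at 0 in cKO and at 0.0270 FPKM in control skin. Of 25 interferon response genes outside the MHC 4 were lower (median -0.61). Among the 4 was the row of Gbp4 with Gbp8 and Gbp9, at 9.60 against 23.1 FPKM. Igtp and Irgm2, of the 25, share 1 row, which was counted for each here and below. Of 6 costimulation genes Cd40 and Cd86 were lower, at 0.918 against 6.75 FPKM (-2.01) and 3.30 against 7.73 FPKM (-1.02). Of 3 genes of class II surface turnover 2 were lower, Cd83 at 0.653 against 4.41 FPKM (-1.71) and March1 at 2.14 against 7.33 FPKM (-1.41). March1 is a ubiquitin ligase that removes class II from the surface. The related March8 was 38.99 against 28.2 FPKM (0.45). H2-Ke6, which is no MHC gene, was 39.4 against 40.9 FPKM (-0.05) in a row shared with Slc39a7.

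At 100 days fewer genes of either class passed the size counted than at 300 days. None of the 9 class II genes was lower or higher by the size counted, with a median log2 ratio of -0.58, and 8 of the 9 ratios were below 0. Of 22 class I genes 2 were lower and none higher (median -0.42), against 4.32% lower and 2.34% higher among all genes. H2-Aa was 35.2 FPKM in cKO and 55.4 FPKM in control skin (-0.64), H2-Ab1 49.8 against 74.9 FPKM (-0.58) and H2-Eb1 18.6 against 34.8 FPKM (-0.86). Cd74 gave -0.74 and H2-DMa -0.92, at 3.81 against 8.07 FPKM. H2-DMb1, H2-DMb2 and Ctss were near equal, with ratios of -0.10, 0.04 and -0.10. H2-Ob was 0.272 against 0.702 FPKM, and Ciita 0.670 against 1.54 FPKM (-0.61).

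At 100 days B2m gave a log2 ratio of -0.94, H2-D1 -0.59 and H2-K1 -0.40, none of them past the size counted. The ratios of B2m and H2-D1 were further below 0 than at 300 days, and that of H2-K1 was nearer to 0. In the T group H2-T22 was 8.54 against 16.4 FPKM (-0.87) and H2-T23 8.77 against 14.9 FPKM (-0.71), while H2-T10 gave -0.62 and H2-T24 -0.44. H2-T3, below the filter, was 3.97 FPKM in cKO skin and listed at 0 in control skin. In the Q group H2-Q10 was 3.64 against 5.65 FPKM (-0.52) and H2-Q5 2.39 against 2.20 FPKM (0.08). H2-Q7 was 11.2 against 9.93 FPKM (0.16), H2-Q6 9.81 against 10.4 FPKM (-0.07) and H2-Q4 14.8 against 13.9 FPKM (0.08). The 2 genes past the size counted were H2-M2, at 1.30 against 4.15 FPKM (-1.16), and H2-M3, at 0.893 against 2.95 FPKM (-1.06). Of the processing genes Psmb8 was 10.2 against 19.0 FPKM (-0.84), Tapbp gave -0.54, Psmb10 -0.39, Tap2 -0.30, Psmb9 -0.16 and Tap1 0.03. Nlrc5 was 14.9 against 11.9 FPKM (0.31). Irf1 was 5.30 against 9.78 FPKM (-0.78), and 3 of the 25 interferon response genes were lower (median -0.44).

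Of the leukocyte lists, 1 of 13 B cell, none of 14 T and NK cell, 2 of 13 macrophage and 1 of 13 dendritic and Langerhans markers were lower by the size counted at 100 days. The B cell list summed to 11.2 FPKM in cKO and 14.9 FPKM in control skin at 100 days, the T and NK cell list to 30.9 against 43.9 FPKM and the macrophage list to 151 against 193 FPKM. The dendritic and Langerhans list summed to 70.7 against 91.2 FPKM, of which Epcam alone gave 33.3 against 40.0 FPKM. The summed 4 class II genes over the macrophage list was 1.27 against 1.61. The gland and mammary list, at 26.2 against 433 FPKM, differed far more, and its part in these ratios was not tested. Cd1d1, an MHC-like gene that presents lipids, was 4.46 against 39.3 FPKM at 100 days (-2.88) and 5.64 against 28.8 FPKM at 300 days (-2.17). It was the only 1 of 7 MHC-like genes outside the complex to pass the size counted at either age.

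The genotype differences at the 2 ages were set against each other as the ratio at 300 days minus that at 100 days, a value in which all 4 groups enter. It was below 0 for all 9 class II genes (median -1.11), and 6 of them passed the size counted, as did 4.95% of all genes in that direction. The values were -2.71 for H2-Ob, -2.35 for H2-DMb2, -1.47 for H2-DMa, -1.17 for H2-Ab1, -1.11 for H2-Aa and -1.01 for Cd74. Of 22 class I genes 6 were below -1 (median -0.63), among them H2-Q7 at -1.40, H2-M2 at -1.28 and Psmb9 at -1.14, and 1 was above 1, H2-Q10 at 1.23, against 3.92% of all genes. B2m, H2-D1 and H2-T23 lay at 0.19, 0.28 and 0.00. Without a value per sample the difference between the ages was not tested.

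The ages were also compared within each genotype, with the same 4 groups as above. In control skin 8 of 9 class II genes were higher at 300 than at 100 days (median log2 ratio 1.23) and none lower, as were 8 of 22 class I genes (median 0.73), against 3.57% higher and 1.07% lower among all genes. Cd74 gave 1.30, H2-Aa 1.23, H2-Ab1 1.04 and H2-Eb1 0.95. H2-Ob was 11.0 FPKM at 300 days and 0.702 FPKM at 100 days (2.82), and H2-DMb2 9.51 against 0.777 FPKM (2.56). H2-Q7 was 29.6 against 9.93 FPKM (1.48), H2-T24 13.5 against 4.42 FPKM (1.42) and Ciita 5.46 against 1.54 FPKM (1.35). B2m, H2-D1 and H2-K1 gave 0.03, 0.09 and 0.40. All 13 B cell markers and 12 of 14 T and NK cell markers were higher at 300 days in the same comparison.

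In cKO skin none of the 9 class II and none of the 22 class I genes differed by the size counted between 300 and 100 days, against 2.43% higher and 1.59% lower among all genes. The medians were 0.12 for class II and 0.23 for class I. H2-Aa was 38.5 FPKM at 300 days and 35.2 FPKM at 100 days, Cd74 107 against 87.3 FPKM and H2-K1 158 against 136 FPKM. The widest ratios were 0.71 for H2-M3 and -0.67 for H2-M5. Of 25 interferon response genes outside the MHC, 9 were higher by the size counted at 300 days in cKO skin (median 0.84) and 11 in control skin (median 0.93), and none was lower by that size. Single genes lay below 0, such as Gbp7 at -0.49 in cKO skin and Cxcl10 at -0.39 in control skin. Isg15, a ubiquitin-like interferon response protein, was 9.20 against 2.23 FPKM in cKO and 12.99 against 3.30 FPKM in control skin.

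In control skin at 700 against 50 days the medians of the classes lay on opposite sides of 0. None of the 31 class I and class II genes passed the size counted, against 0.764% higher and 3.26% lower among all genes. All 9 class II ratios were below 0 (median -0.46). Cd74 was 163 FPKM at 700 days and 283 FPKM at 50 days (-0.79), H2-DMa 12.9 against 21.7 FPKM (-0.71), H2-Eb1 35.1 against 51.6 FPKM (-0.54), H2-Ab1 103 against 147 FPKM (-0.51) and H2-Aa 70.7 against 97.8 FPKM (-0.46). Of the 22 class I ratios 16 were above 0 (median 0.21). H2-D1 gave 0.38, H2-K1 0.36, Tap1 0.38 at 53.8 against 41.2 FPKM, Psmb8 0.38 at 32.0 against 24.3 FPKM and Psmb9 0.45 at 22.2 against 16.0 FPKM. B2m was equal in level (0.00).

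The summed H2-Aa, H2-Ab1, H2-Eb1 and Cd74 over the summed H2-K1 and H2-D1 was 0.498 at 700 days and 0.999 at 50 days. Nlrc5 was 63.4 against 48.1 FPKM (0.39) and Ciita 2.48 against 2.92 FPKM (-0.17). The Qa-2 genes H2-Q6 and H2-Q7 were 38.9 against 30.2 FPKM (0.35) and 42.4 against 40.8 FPKM (0.05). H2-M5 and H2-M2 were the class I genes furthest below 0, at 10.1 against 13.9 FPKM (-0.42) and 9.65 against 12.7 FPKM (-0.37). In the same groups the macrophage list summed to 66.0 FPKM at 700 days and 136 FPKM at 50 days, with 5 of 13 markers lower. The dendritic and Langerhans list summed to 102 against 105 FPKM, of which Epcam alone gave 64.2 against 56.7 FPKM. None of its 13 markers passed the size counted (median 0.01). Their ratios ran from -0.90 for Clec10a, at 5.46 against 11.0 FPKM, to 0.20 for Ccr7. Cd207 was 14.2 against 14.1 FPKM. The keratinocyte list summed to 7691 against 5157 FPKM. The part of either cell type in these ratios was not tested.

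**Figure D4:**
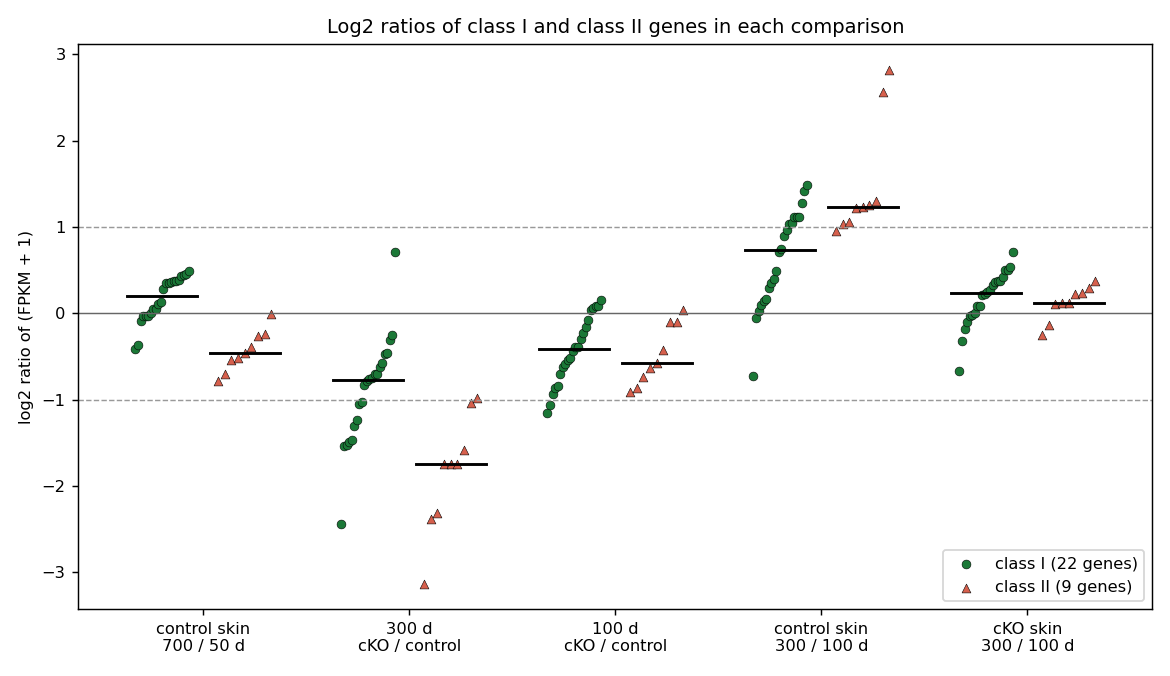
Log2 ratios of (FPKM + 1) of the 22 class I genes (circles) and 9 class II genes (triangles) with an average of 1 FPKM or more, in each comparison, sorted within a class, with bars at the class medians and dashed lines at the size counted. The class II median lies at -1.75 for cKO against control skin at 300 days, at -0.58 at 100 days, at 1.23 for control skin at 300 against 100 days and at 0.12 for the same ages in cKO skin.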

How the data were processed

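RNA of whole skin was sequenced in 20 samples of 6 groups, which were taken from the source names in the labels. Per the labels' protocols, ribosomal RNA was removed with Ribo-Zero-Gold or Ribominus and libraries were directional; the kit is not assigned to samples. The submitters' processing notes name HISAT2, Cufflinks, Cuffdiff and mm10. Not given in the sources used here are the annotation, the strand setting and how samples were combined. The authors deposited FPKM for groups, not samples, so read depth is unknown and no test could be made.

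The rows of each gene were found by symbol, and none of the 52 genes had more than 1 row. The background was the rows of 1 symbol that is not named as a predicted gene, Rik clone, LOC, small RNA or pseudogene, plus these genes, 20237 in all, of which 12296 averaged 1 FPKM or more. Log2 ratios of (FPKM + 1) were computed and checked on simulated tables. All genes with that mean are named, as are the others that reach 1 FPKM in a group. Of the other lists, a few fixed genes and some of those past the size counted are named. Genes and lists were chosen with earlier results of these data known. Irf8 and Fdcsp, of the lists, had no row. Coordinates come from GENCODE M21 (GRCm38). Shared windows are 75-base stretches of GENCODE transcripts found in transcripts of another gene. Alternatives were pseudocounts of 0.1 and 0.5, no filter, a stricter one (mean of 5 FPKM or more), columns scaled to equal medians or totals, and summing the rows of a symbol. Python 3.11.15, pandas 2.3.3, numpy 2.4.6 and matplotlib 3.10.9 were used.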

Additional observations from a re-analysis of the deposited data

How the results depend on the processing

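Of 252 counts and medians recomputed under 7 other settings, 243 stayed within 1.5 times, or within that factor on the log2 scale for medians, and no median called at a size of 1 changed sign. Summing the rows of a symbol could change no count or median, since none of the 52 genes had more than 1 row. The 36 values of that setting, all unchanged, are among the 243. For cKO against control skin at 300 days none of these 7 settings changed a count beyond 1.5 times. The counts that did move were small. For cKO against control skin at 100 days, class II genes lower were 2 with a pseudocount of 0.1 and 2 with equal totals, against 0. Class I genes lower in that comparison were 1 with a mean of at least 5 FPKM and 4 with equal totals, against 2, and 1 class I symbol, H2-T3, was higher with no filter. In cKO skin at 300 against 100 days 1 class I gene was higher with a pseudocount of 0.1 and 1, H2-T3, lower with no filter. For the difference between ages, class I genes above 1 were 0 with a mean of at least 5 FPKM, against 1. In control skin at 300 against 100 days class I genes higher were 5 with equal totals, against 8, where that scaling moved the median of all genes to -0.15.

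After the lymphocyte transcripts of the 300-day controls had been seen, cKO skin at 300 days was also set against control skin at 100 days. Then 1 of 9 class II and 1 of 22 class I genes were lower, and the class II median was -0.45. The share of all genes lower in this comparison was not computed. H2-DMb1 and H2-DMb2, lower against controls of the same age, gave 0.019 and 0.25. These controls differ in age from the cKO group and carry the gland transcripts given above. No paired analysis was possible because the table has 1 column per group, and for the same reason no replicate could be left out. With 1 value per group and unknown depth, differences of low genes such as H2-Oa, H2-Eb2 and H2-T3 cannot be weighed against counting error.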

Other observations

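H2-T3, which encodes the thymus leukemia antigen of gut epithelium, was 3.97 FPKM in cKO skin at 100 days, listed at 0 in the 100-day controls and in cKO skin at 300 days, and at most 0.254 FPKM in the other groups. Of the 52 genes, 50 were listed above 0 in cKO skin at 100 days, against 39 to 46 in the other groups. The symbols H2-M1, H2-M10.1, H2-M10.3, H2-M10.4 and H2-Q3 were above 0 only there, with at most 0.207 FPKM each. Over all rows, 4089 were above 0 in that group alone, against 102 to 709 in each other group. Whether H2-T3 shares the cause of this wider listing was not tested.

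H2-Q10 ran against its neighbours. It was 0.320 and 0.407 FPKM in control skin at 700 and 50 days, where H2-Q7 was 42.4 and 40.8 FPKM. It was 5.56 FPKM in cKO and 3.02 FPKM in control skin at 300 days, and 3.64 against 5.65 FPKM at 100 days. No ratio was taken between groups of different title prefixes, and 12.52% of its 75-base windows also occur in other genes, H2-Q7 first among them.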
